A study of Drosophila melanogaster with 2 samples.

Results

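Of the 3350 reproducible binding regions (optimal peaks) of the transcription factor Bteb2-eGFP in Drosophila melanogaster embryos, 215 (6.42%) had their summit just downstream of a single promoter. A summit, the highest point of a peak, was counted as such when the nearest annotated transcription start site (TSS) lay within 500 bp and the summit fell at that TSS or after it in the direction of transcription. Summits with a pair of outward-facing promoters of different genes, both within 500 bp, were left out and are called divergent here. Such a summit did not have to lie between the pair. By the same distances 966 optimal peaks lay just upstream of a single promoter, 795 lay at divergent promoters and 1374 lay farther than 500 bp from any TSS. Members were chosen by position alone, and the upstream peaks served as the comparison.

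The samples were 2 anti-GFP chromatin immunoprecipitation libraries of 1 group, which the labels call biological replicates 1 and 3. Both came from whole embryos aged 4 to 20 h, of mixed sex, of a transgenic line that expresses Bteb2 with eGFP fused to its C-terminus, so that all binding was read through the tag. Bteb2 is the product of Klf15. Chromatin had been sonicated to fragments of 200 to 800 bp, a size that limits how precisely a summit can be placed relative to a TSS. Read depth, controls and expression were not analysed here, so tissue markers could not be checked and regions that many anti-GFP experiments recover were not told apart from sites of the factor.

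KLF proteins are zinc finger transcription factors that bind GC-rich and CACCC-type boxes, and they act as activators or repressors at the promoters of many genes. In flies, the sequence upstream of a start site usually carries promoter-proximal elements such as the DRE (bound by DREF) and motif 1 (bound by M1BP). The sequence downstream carries the 5′ UTR, elements such as the DPE, the region where RNA polymerase II pauses and, in many genes, the first intron. Fly ribosomal protein genes start transcription at a polypyrimidine initiator, the TCT element.

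Members fell into a large group in 5′ UTRs and a smaller one in first introns. The sequences of the strongest intronic members show summits outside the exons of transcripts that start at the nearest TSS. Exons of other transcripts were not checked. Each line gives 81 bases from Release 6 of the genome (dm6), read 5′ to 3′ in the direction of the gene, and the capitals mark the 5 bases at the summit.
CG31612 (chr2L:21794918-21794998, minus strand): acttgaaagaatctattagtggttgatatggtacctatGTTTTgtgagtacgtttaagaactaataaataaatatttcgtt
Cftr (chr3R:24543178-24543258, minus strand): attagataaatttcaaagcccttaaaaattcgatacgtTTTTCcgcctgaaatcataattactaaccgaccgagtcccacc
Ptp4E (chrX:4939950-4940030, plus strand): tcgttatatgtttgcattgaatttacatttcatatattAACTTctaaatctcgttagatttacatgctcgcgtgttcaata
rudhira (chrX:11818543-11818623, plus strand): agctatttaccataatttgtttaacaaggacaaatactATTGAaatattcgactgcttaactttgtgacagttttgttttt

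These summits lay 489 bp after the TSS of CG31612, 207 bp after that of Cftr, 409 bp after that of Ptp4E and 246 bp after that of rudhira. Cftr encodes the fly relative of the CFTR chloride channel, and Ptp4E a receptor tyrosine phosphatase. Their GC content within the 81 bases was 27.2%, 37.0%, 28.4% and 27.2%, respectively.

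Of the short motifs searched at summits, the AP-1 site TGACTCA had the highest odds ratio against upstream peaks. The lines show the 7 sites on sequence that can be printed, as 30 bases in the direction of the gene with the site in capitals. TGAGTCA is the same site on the opposite strand.
lncRNA:CR44478 (chr2L:18145583-18145612, plus strand): aaggcgttccaTGAGTCAcccagacaatga
Pcyt1 (chr3L:1548748-1548777, plus strand): tatagaaatcgTGAGTCAttactgctatgt
lncRNA:CR46204 (chr2L:17451050-17451079, plus strand): tctttcacatgTGACTCAtctccacgagcg
Claspin (chr3L:4313414-4313443, plus strand): atacattaattTGACTCAtttcttctacat
alphaTub84B (chr3R:7086647-7086676, plus strand): tatacgctctcTGAGTCAgacctcgaaatc
CG5510 (chr3R:24169541-24169570, minus strand): agtcacagtaagTGACTCAcaattgcccac
zfh2 (chr4:501825-501854, plus strand): aaaacgttgaaTGAGTCAgatgcgggtcgg

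Sites of the promoter elements were found on both sides of the TSS. The next lines show the DRE (TATCGATA, capitals) near 4 member summits.
RpL26 (chr3L:18898850-18898879, plus strand): gatgacagtgtTATCGATActagctgaatt
JIL-1 (chr3L:11093171-11093200, minus strand): cttgtcaacacTATCGATAacgatagctac
CTCF (chr3L:7356716-7356745, minus strand): accaatcgaacTATCGATAgctggcggtac
cnc (chr3R:23190146-23190175, minus strand): ttacagtgcacTATCGATAtggaggaccca

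The box that KLF and SP proteins bind was searched in 4 forms on either strand, of which the GC box is GGGCGGG. The next form ends in TG in place of GG and reads GGGCGTG. The remaining forms, which match the CACCC type, read GGGTGGG and, with the same ending, GGGTGTG. It is shown, in capitals, for a member in a 5′ UTR near its TSS (Fmr1, which encodes a translational regulator), for a member in a 5′ UTR farther away (eas) and for a member in a first intron (Sec13).
Fmr1 (chr3R:10110044-10110073, minus strand): gcttgggccaaaCACGCCCgaaatctagcc
eas (chrX:16278848-16278877, plus strand): aagggggtcgtGGGCGGGggttcttaaccc
Sec13 (chr3R:23356955-23356984, plus strand): aagtaaacgggCACACCCataccaacaaag

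Ribosomal protein genes were the listed gene group with the highest share of members. Some of their start sites are shown as 30 bases in the direction of the gene. A capital marks the annotated TSS, except in RpL8, where the capitals mark the TCT word CTTTT across it.
RpL8 (chr3L:2587442-2587471, plus strand): ggatgtcttcctCTTTTcttttcttttcgc
RpL35A (chr3R:5467086-5467115, minus strand): agaggcagccacacTatttccttcttttcg
RpL24 (chr2L:13395116-13395145, minus strand): ctgcccgtggcagcCacactaatttggctc
RpL37A (chr2L:5070943-5070972, plus strand): accttgtcgcgtccAcattttgaggtatca

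Member summits lay from 0 to 493 bp after the TSS, with a median of 128 bp (quartiles 33 and 341). There were 45 within 24 bp, 22 at 25 to 49 bp and 27 at 50 to 99 bp. A further 42 lay at 100 to 199 bp, 27 at 200 to 349 bp and 52 at 350 to 500 bp. These bins differ in width, so their counts do not show where summits were densest. Of the 966 upstream summits, 57 lay within 24 bp, 292 at 100 to 199 bp and 106 at 350 to 500 bp, with a median of -152 bp. The nearest and the farthest bin thus each held a larger share of members than of upstream summits, and each bin between them a smaller one. The position rule sets these distances, so they are given as a description.

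The rule's limits cut through continuous positions. At the TSS, the summits of Pi3K21B, which encodes the regulatory subunit of a phosphoinositide 3-kinase, and of eEF2, an elongation factor gene, lay at 0 bp and were members. Those of RpL10Ab and ND-13B at -1 bp were not. At the far limit, lncRNA:CR44363 (492 bp) and CG5854 (493 bp) were members, while lncRNA:CR44619 (501 bp, signal 652) and Fbl6 (505 bp) were not.

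Most member summits lay on the same side of the TSS in both replicates, partly because of how they were matched. For each member the nearest summit in each replicate's own relaxed list, within 200 bp, was placed against the same TSS. A match within 200 bp could not change the side of a summit farther than 200 bp from the TSS. The shares below thus include outcomes that were fixed. Both replicates put it downstream for 178 of 215 members (82.8%, exact 95% interval 77.1 to 87.6). Replicate 1 alone did so for 26, replicate 3 alone for 6 and neither for 5. Among the upstream peaks, both replicates kept the side for 922 of the 960 found in both (96.0%, 94.6 to 97.2).

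Every loss of side lay close to the TSS. All 121 members at 100 bp or farther were downstream in both replicates, but this was fixed for those 200 bp or more away. These were the 27 at 200 to 349 bp and the 52 at 350 to 500 bp. All 42 members at 100 to 199 bp, whose side could have changed, were downstream in both. The count was 22 of 27 at 50 to 99 bp, 16 of 22 at 25 to 49 bp and 19 of 45 within 24 bp. The summits of the replicates differed by a median of 26 bp (90th percentile 90.8 bp), which exceeds the distance of many of these members to the TSS. For those within 24 bp, position on the downstream side was therefore not resolved by these libraries.

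**Figure D1:**
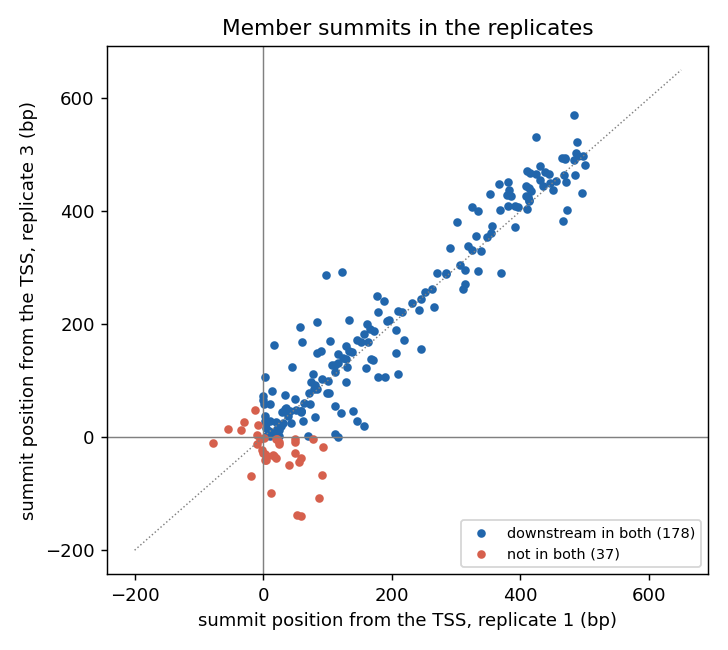
Position of the nearest summit in replicate 1 (horizontal axis, bp) and replicate 3 (vertical axis, bp) relative to the TSS for the 215 members, positive after the TSS. The 178 blue points are downstream in both replicates, the other 37 (red) gather near 0, and the dotted line marks equal positions. Replicate summits were matched within 200 bp, so members 200 bp or more from the TSS could not lose their side.

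By the transcripts that start at the nearest TSS, 128 members (59.5%) had their summit in a 5′ UTR and 51 (23.7%) in a first intron. Another 22 fell in noncoding exons, 4 in coding exons, 3 in later introns, and 7 past the end of a short transcript. The 5′ UTR members lay a median of 50 bp from the TSS and the first-intron members 344 bp, so location and distance went together. All 51 first-intron members, and 91 of the 128 in a 5′ UTR, were downstream in both replicates. Members 200 bp or more from the TSS could not lose their side, so these counts do not compare the locations. The authors' peak interval itself covered the TSS in 132 members (61.4%), since 189 of the 215 intervals had the common width of 416 bp.

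A later TSS of the same gene within 500 bp followed 41 members (19.1%). These summits are downstream of the nearest TSS yet upstream of another start of the gene. CG4497 is an example, with its summit 38 bp after the nearest TSS and the next start of the gene another 137 bp on. Start sites of another gene lay within 500 bp of 9 members, 5 on the same strand and 4 on the opposite one.

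The strongest member peak was at PNPase, the gene of the mitochondrial exoribonuclease polynucleotide phosphorylase (3R from 31404492 to 31404836, dm6). Its signal, the authors' peak score, was 853 in the pooled list (rank 11 of the optimal peaks), 545 in replicate 1 and 308 in replicate 3. The summit lay 79 bp after the TSS in the pooled list and in replicate 1, and 85 bp after it in replicate 3. Both replicates thus placed it among their own strongest peaks, at ranks 9 and 11. Scales differ between lists, so signals are compared by rank within a list.

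GstE13, a glutathione S-transferase gene, came next (2R from 9122019 to 9122370), with a pooled signal of 681 (rank 20), 400 in replicate 1 and 285 in replicate 3. Its summit lay 58, 58 and 47 bp after the TSS in the same order. The third was lncRNA:CR31840, with 432 in the pooled list (rank 63), 277 in replicate 1 and 156 in replicate 3, 22 bp after its TSS. All 3 had the same order of signal in both replicates.

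ph-p, which encodes a subunit of a Polycomb repressive complex, held the fourth (X from 2137722 to 2138084). Its signal was 386 in the pooled list (rank 94), 214 in replicate 1 (rank 114) and 188 in replicate 3 (rank 47). The summit lay 407 bp after the TSS, in the 5′ UTR, and another optimal summit lay 638 bp away. These 4 were the only members among the 100 strongest optimal peaks, a share of 1.86% of members beside 3.31% of upstream peaks and 4.15% of divergent peaks.

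Next in signal came CG31612, CG4497, CG18622, Adk3, which encodes an adenylate kinase, and Ufsp1, which encodes a protease of the ubiquitin-like modifier UFM1, with pooled signals of 297, 293, 291, 288 and 272. CG31612 has a second member peak, 290 bp after the TSS, with a signal of 71.8. Trpm, a cation channel gene, and ced-6, an engulfment adaptor gene, also hold 2 members each. The Trpm peaks are at different start sites, 147 and 117 bp after them, with signals of 206 and 99.4.

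Transcription factor genes among the 25 strongest members were CHES-1-like, of the forkhead class, and Eip75B, an ecdysone-responsive nuclear receptor gene, at pooled signals of 242 each. The summit at CHES-1-like lay 222 bp after the TSS, and 232 and 237 bp after it in replicates 1 and 3. At Eip75B the summit was 20 bp after the TSS in the pooled list and in replicate 1 but 36 bp before it in replicate 3 (-36). Its rank was 169 in replicate 1 and 791 in replicate 3. The side of the Eip75B peak therefore differed between the libraries.

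The other named members lay between ranks 220 and 469. In introns these were Cftr (signal 246), Ptp4E (205) and rudhira (195). In 5′ UTRs they were CG9399 (237), CG2811 (237), the carbonic anhydrase gene CAH3 (226), CG12316 (199), RpL24 (189), the deubiquitinase gene scny (188) and CG17982 (187). The noncoding ones were lncRNA:CR44676 (262), lncRNA:CR44363 (212) and lncRNA:CR46102 (186).

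Over all members the signal ran from 66.0 to 853 with a median of 93.4 (quartiles 75.0 and 133). The lowest, median and highest values were 26.9, 60.2 and 545 in replicate 1, and 7.67, 35.6 and 308 in replicate 3. Of the 215, 152 were among the 3350 strongest peaks of both replicates, 42 of replicate 1 only, 18 of replicate 3 only and 3 of neither. The share in both was 70.7% of members and 76.7% of upstream peaks (adjusted p 0.153, Fisher's exact test). Across members the replicate signals had a Spearman rho of 0.576, a description over 215 regions that share the same 2 libraries.

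**Figure D2:**
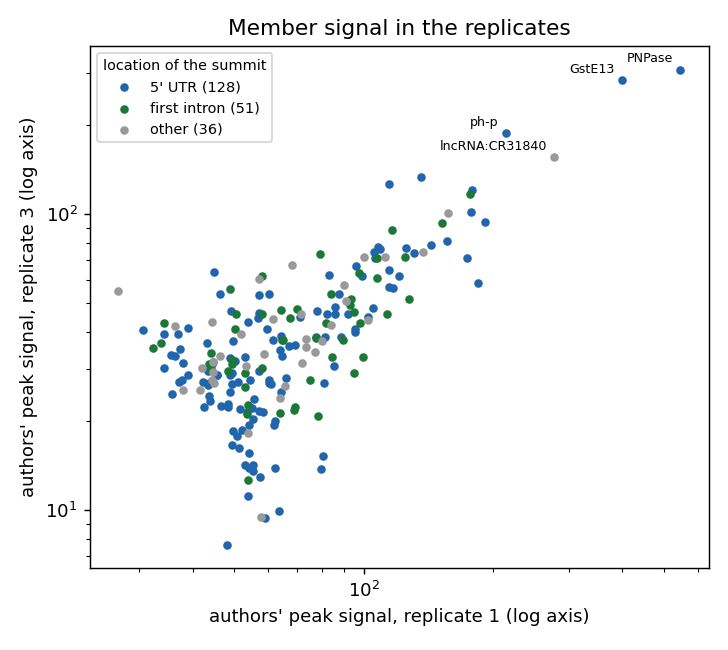
The authors' peak signal of the 215 members in replicate 1 (horizontal log axis) and replicate 3 (vertical log axis), coloured by the location of the summit. PNPase (545 and 308) and GstE13 (400 and 285) stand highest, and most other members lie near the medians of 60.2 and 35.6.

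Peaks on the downstream side were less frequent among strong peaks than among weaker ones. Of the 1181 single-promoter summits in the optimal set 18.2% lay downstream, and of the 1215 among the next-ranked 3350 pooled peaks 32.5% did. The odds ratio was 0.462 (95% interval 0.382 to 0.559), with a p of 7.69e-16 in a two-sided Fisher's exact test over peaks. In replicate 1 alone the shares were 21.99% and 36.96%, with an odds ratio of 0.481, and in replicate 3 alone 17.8% and 31.5%, with an odds ratio of 0.472. Tests over peaks treat them as independent and carry no spread between libraries, which is why each library's own value is given.

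The share was higher in weaker ranks, though not at every step. It was 13.3% in ranks 1 to 837, 19.8% in ranks 838 to 1675, 14.5% in ranks 1676 to 2512 and 26.1% in ranks 2513 to 3350. Beyond the optimal set it was 42.7% in ranks 6701 to 10050 and 49.3% in ranks 20101 to 30000, where as many single-promoter summits lay downstream as upstream. The authors call these relaxed lists peaks and background, and how many of the lower-ranked regions are background was not determined. Without the members that precede a later TSS of the gene, the shares were 15.3% and 29.2%.

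**Figure D3:**
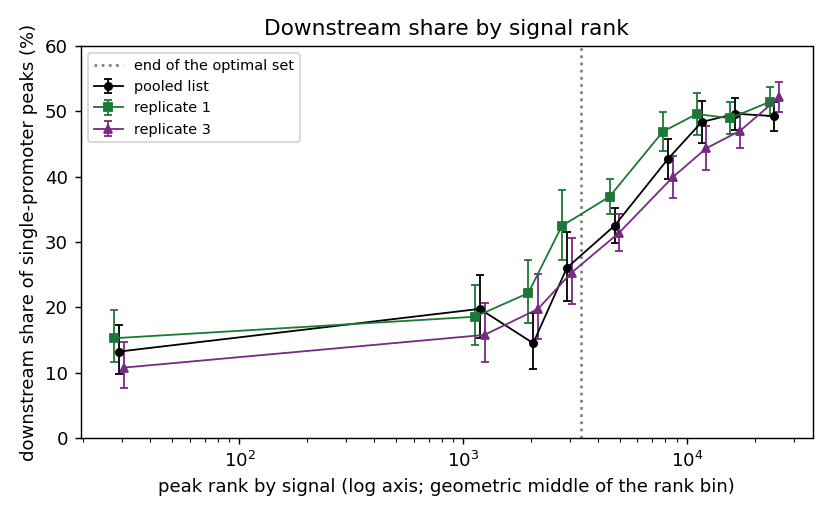
Share of single-promoter summits that lie downstream of the TSS (vertical axis, %) by signal rank (horizontal log axis) in the pooled list and in each replicate's own list, with exact 95% intervals. In all 3 lists the share is lowest in the strongest peaks (13.3%, 15.3% and 10.8%) and reaches 49.3% to 52.1% in the weakest.

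Within the optimal set the difference in strength was smaller. Of the members, 100 of 215 (46.5%) had a rank of 1675 or better, beside 515 of 966 upstream peaks (53.3%). The odds ratio was 0.762 (0.566 to 1.02) and the p 0.0824 in a two-sided Fisher's exact test, so the difference did not pass the threshold of 0.05. It passed in each replicate's own list, with odds ratios of 0.537 (p 8.13e-06) in replicate 1 and 0.511 (p 1.67e-05) in replicate 3. Those lists hold other peaks, 274 and 207 downstream ones among their strongest 3350. The median signal was 93.4 in members and 104 in upstream peaks.

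Strength varied with location among members. The median signal was 84.7 in the 5′ UTR and 109 in first introns, and 39.1% and 58.8% of these groups ranked at 1675 or better. By distance, medians were 100 within 24 bp, 71.9 at 25 to 49 bp and 111 at 350 to 500 bp. Members a short way into the transcript were thus the weakest, and no test was made of this pattern.

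Member summits lay in less AT-rich sequence than upstream summits. The GC content of the 201 bp around the summit averaged 40.3% ± 7.78 (SD, 215 windows) in members and 36.6% ± 6.85 (SD, 966 windows) in upstream peaks, beside 35.6% ± 6.39 at divergent promoters. An AT-rich window, with less GC than the median of all optimal windows (35.3%), was found at 58 members (27.0%) and 432 upstream peaks (44.7%). The odds ratio was 0.457 (0.329 to 0.633) and the p 1.29e-06 in a two-sided Fisher's exact test. The difference was present in replicate 1 alone (odds ratio 0.387) and in replicate 3 alone (0.478).

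Composition differed between the locations of the members. The 5′ UTR members had a mean GC of 42.3% ± 7.12 (SD), and 14.1% of them were AT-rich. First-intron members had 36.6% ± 6.70 (SD), with 47.1% AT-rich, close to the upstream values, as had the 22 in noncoding exons with 36.5% ± 6.63 (SD). The 4 in coding exons had 55.3% ± 9.73 (SD), and the extremes were 23.9% at lncRNA:CR43411 and 67.2% at Hakai, an E3 ubiquitin ligase gene.

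Around the summit, GC in windows of 51 bp was lowest 50 bp before it in upstream peaks (33.9%), and members had a local minimum of 38.03% 50 bp after it, between 42.5% at -100 bp and 46.2% at 250 bp. Around the TSS itself the 2 classes followed like profiles. In windows of 51 bp centred on it, GC was 46.4% ± 0.675 (SEM) for members and 47.4% ± 0.282 (SEM) for upstream peaks, and 200 bp before it 35.7% ± 0.829 and 33.9% ± 0.369. A window of 201 bp at the same distance on the other side of the TSS gave a further comparison. Upstream summits had 36.6% against 44.1% at their mirrored place, and the summit was the lower in 742 of 966. Member summits had 40.3% against 39.9%, lower in 96, higher in 103 and equal in 16. Sequence on the transcript side is more GC-rich at both sets of genes, so side and composition cannot be told apart in this contrast.

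**Figure D4:**
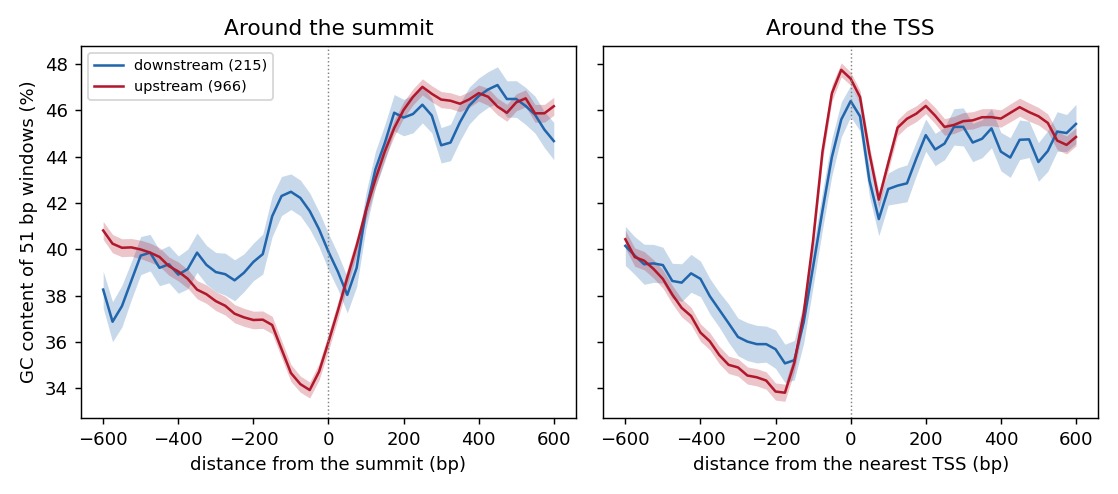
Mean GC content (%, band ± SEM) in windows of 51 bp around the summit (left) and around the nearest TSS (right) for 215 downstream members and 966 upstream peaks, with distance in bp in the direction of the gene. Both classes have a minimum beside the summit, at 33.9% (-50 bp) for upstream peaks and 38.03% (50 bp) for members, while the profiles around the TSS run close together.

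No motif separated members from upstream peaks at the adjusted threshold: 0 of 26 (0%) were called by two-sided Fisher's exact tests with Benjamini-Hochberg adjustment. At an unadjusted p under 0.05 there were 4, and with Mantel-Haenszel odds ratios over 5 bins of GC content 1 was called. The AP-1 site was in 10 member windows (4.65%) and 12 upstream windows (1.24%), with an odds ratio of 3.88 (1.65 to 9.10), an unadjusted p of 0.00275 and an adjusted p of 0.0714. The share over all 3350 optimal windows was 2%, and at divergent promoters 2.14%.

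The AP-1 difference depended on the choice of peaks and on GC. Within GC bins the odds ratio was 4.46 (adjusted p 0.0103). In replicate 3 alone it was 4.78 (adjusted p 0.0437, Fisher's exact test), and in replicate 1 alone 2.79 (adjusted p 0.170). Among the next-ranked peaks the site was in 1.52% of 395 downstream and 1.71% of 820 upstream windows. Within summits 50 to 250 bp from the TSS 1 of 80 members held it, and in the 101 bp closest to the summit 4 of 215 did.

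The 10 genes with an AP-1 site at a member summit were Adk3, Ufsp1, Jra, lncRNA:CR44478, Pcyt1, lncRNA:CR46204, Claspin, alphaTub84B, CG5510 and zfh2. Jra encodes the fly Jun, itself a subunit of AP-1. Claspin is a replication checkpoint gene, alphaTub84B an alpha-tubulin gene and zfh2 a zinc finger homeodomain gene. Of the 10 sites 8 lay after the TSS, from -68 to 570 bp. They lay a median of 65.5 bp from the summit, 5 of them before it, so they were not concentrated at the summits.

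The 3 other motifs with an unadjusted p under 0.05 were the TATA box TATAAA (25.1% of member and 33.6% of upstream windows, 34.2% of all optimal ones), the CA repeat CACACACA (6.05%, 2.69% and 3.22%) and the GAGA site GAGAGAG (2.79%, 6.73% and 3.64%). Their adjusted p-values were 0.166, 0.166 and 0.169 in Fisher's exact tests. The CA repeat was called in replicate 1 alone, at 8.39% against 2.78% (adjusted p 0.00387). It was also called among the next-ranked peaks, at 10.4% against 4.39% (odds ratio 2.52, adjusted p 0.00168). Its 27 matches in 13 member windows, many of which overlap within 1 longer repeat, all lay after the TSS.

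Motifs of promoters and of the factor's own family had shares near those of upstream peaks. The DRE was in 5.12% of member and 5.69% of upstream windows, with an odds ratio of 0.893 (0.459 to 1.74). Motif 1, GGTCACACT, was in 2.33% and 2.90% (0.798, 0.304 to 2.09). The KLF/SP box was in 11 member windows (5.12%) and 4.66% of upstream windows, with an odds ratio of 1.10 (0.561 to 2.17). The intervals reach well to both sides of 1, so they do not show equal shares.

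The places of these sites differed. Of the 11 DRE sites at members 6 lay before the TSS, from -86.5 bp on, and 5 after it, up to 258.5 bp. The 11 KLF/SP boxes all lay after the TSS, from 18 to 529 bp. Of the 5 motif 1 sites 3 lay before the TSS. Windows around downstream summits hold more downstream sequence, so the rule itself favours sites after the TSS. The CTCF site AGGTGGCGC was in a single member window, at lncRNA:CR43838.

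**Figure D5:**
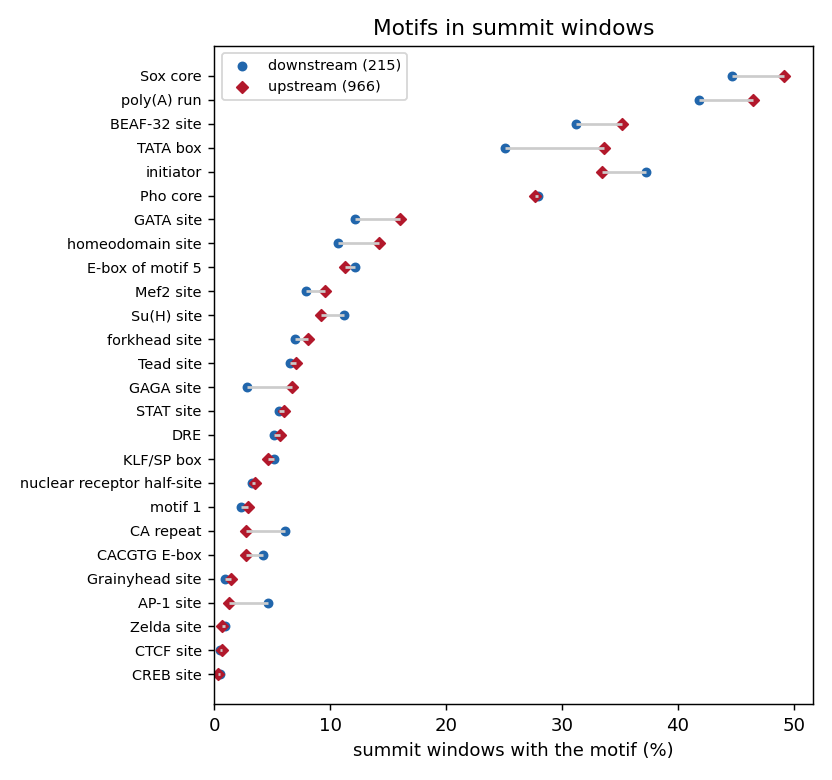
Share of 201 bp summit windows that hold each of 26 motifs (horizontal axis, %) in 215 downstream members (circles) and 966 upstream peaks (diamonds). None differed at the adjusted threshold, and the widest gap on a ratio scale is at the AP-1 site (4.65% and 1.24%).

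No core promoter element at the TSS itself separated the classes, which does not show equal shares. Of 9 elements searched at fixed places, 0 (0%) were called by Fisher's exact tests with Benjamini-Hochberg adjustment, and 0 had an unadjusted p under 0.05. The TCT initiator was at 4 of 214 member start sites and 9 of 933 upstream ones (odds ratio 1.96, 0.597 to 6.41). The DPE was at 8.41% and 9.75%, the pause button at 7.01% and 8.15% and the TATA box at 3.27% and 4.18%.

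Among 7 features of the gene and promoter, 1 (14.3%) was called. Members lay less often at protein-coding genes, 184 of 215 (85.6%) against 916 of 966 (94.8%), with an odds ratio of 0.324 and an adjusted p of 6.18e-05 in Fisher's exact test with Benjamini-Hochberg adjustment. Their other genes were 27 that the annotation types as ncRNA, 2 of snRNAs, 1 of a snoRNA and 1 of a tRNA. Of the 27, 26 were at least 200 bp long and 1 was shorter. With summits limited to 250 bp the odds ratio was 0.521 and the adjusted p 0.126, and with summits 50 to 250 bp away 0.390 and 0.0759.

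The 31 noncoding members lay farther in than the 184 coding ones, at medians of 354 and 116 bp, and all 31 were downstream in both replicates. For those 200 bp or more from the TSS, the match within 200 bp fixed this outcome. Windows of the noncoding members had a mean GC of 36.3% ± 6.60 (SD), beside 41.0% ± 7.77 (SD) at coding genes. Of the 7 members past a transcript end 6 were at noncoding genes, as at lncRNA:CR44676, 393 bp after its TSS. The genes typed as snRNA, snoRNA or tRNA were snRNA:U5:63BC (77 bp, signal 81.7), snRNA:U4:39B (38 bp, 66.0), snoRNA:Or-CD4 (399 bp, 83.6) and tRNA:Ser-AGA-2-4 (1 bp, 71.6), all in the weaker ranks.

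More than 1 TSS was annotated for 131 member genes' peaks (60.9%) and 504 upstream ones (52.2%), with an odds ratio of 1.43 (1.06 to 1.93) and an adjusted p of 0.0810. It passed under 5 alternatives, among them replicate 3 alone (1.65, adjusted p 0.00548, Fisher's exact test) and summits within 250 bp (1.97, adjusted p 0.000278). It did not pass in replicate 1 alone (1.31, adjusted p 0.121). Members that precede a later TSS of their gene within 500 bp have more than 1 TSS by definition. Without them, and with the upstream peaks unfiltered, the shares were 51.7% and 52.2% (odds ratio 0.982, adjusted p 0.934, Fisher's exact test). The member share had to fall, so the other 174 do not show where the difference came from. Genes over 10 kb held 28.4% of members and 34.4% of upstream peaks, and the X held 17.7% and 15.5%, neither past the threshold.

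Members were spread over 212 genes, of which 181 are among the 13968 protein-coding genes (1.3%). By comparison, 856 protein-coding genes (6.13%) had an upstream single-promoter peak, and 16 member genes had both. Counts in the gene lists below are set beside these shares, with no test.

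Cytoplasmic ribosomal protein genes held 13 of the members, 14.1% of the 92 genes listed, beside the 1.3% of protein-coding genes. The same list had upstream peaks at 20 genes (21.7%), beside 6.13% of protein-coding genes, and 1 of the 13 genes was among those 20. They were RpL24, RpL37A, RpS4, RpL26, RpL8, RpS28b, RpL27A, RpL35A, RpS23, RpS30, RpL36A, RpL10 and RpL39. Their summits lay 1 to 40 bp after the annotated TSS, and 4 of the 13 were downstream in both replicates.

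RpL24 had the strongest of them, with a signal of 189 in the pooled list, 108 in replicate 1 and 77.5 in replicate 3, at 6, 4 and 2 bp after the TSS. RpL37A followed with 159, 96.1 and 67.0, at 3 and 3 bp after the TSS in the pooled list and replicate 1 but at -40 bp in replicate 3. RpS4 had 138, 91.8 and 46.1, at 19, -35 and 13 bp. For 9 of these 13 members, RpL37A and RpS4 among them, at least 1 replicate put the summit before the TSS. The 4 that were downstream in both replicates lay within 24 bp of the TSS. The side of the 13 was therefore not resolved by these libraries.

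Several of these genes have a later annotated TSS nearby. It lay 33 bp beyond the summit at RpL24, 40 bp beyond it at RpL37A and 26 bp beyond it at RpL27A. Of the start sites printed above, RpL8 held the TCT word CTTTT across the annotated TSS, while the pyrimidine run of RpL35A lay a few bases farther on. Among the 13 ribosomal protein members, RpL8 alone had a TCT word at the place searched. Motif 1 was within the summit windows of RpL37A, RpL27A and RpS23, and the DRE within those of RpL26, RpL36A and RpL39. No member was a mitochondrial ribosomal protein gene (0 of 73), and 1 of 44 translation initiation factor genes was a member, eIF3c.

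Among regulators of chromatin and promoters, 2 of 30 Polycomb and trithorax genes (6.67%) were members, ph-p and Trl, which encodes the GAGA factor. Trl had a signal of 176 in the pooled list, 106 in replicate 1 and 74.7 in replicate 3, with the summit 138, 138 and 151 bp after the TSS. Of 23 insulator and promoter factor genes 3 (13.0%) were members, Trl, pita and CTCF. Both shares are above the 1.3% of protein-coding genes, on counts of 2 and 3, with Trl in both lists. Upstream peaks were at 13.3% and 8.70% of the genes of these lists, beside 6.13% of protein-coding genes. The peaks at pita and CTCF were weak, with signals of 71.8 and 67.9, at 123 and 40 bp.

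Developmental pathways each held at most 2. Of 20 ecdysone response genes 2 were members, Eip75B and the nuclear receptor gene Hr39 (signal 72.0). The Notch list had 1 of 21, kuz, the gene of an ADAM protease that cleaves Notch. The Wnt list had 1 of 20, arr, a Wnt co-receptor gene. The EGFR and Ras list had 1 of 29, aop, which encodes the ETS repressor Yan. The Dpp (0 of 16), JAK-STAT (0 of 10), Hox and segmentation (0 of 34), circadian clock (0 of 14) and glycolysis (0 of 14) lists held none. Beside the 1.3% of protein-coding genes, lists of these sizes are too short for such counts to be read as more or fewer.

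The lists closest to the factor were also without members: 0 of 10 KLF and SP family genes, among them its own, and 0 of 27 heart and nephrocyte genes. Neuronal differentiation had 1 of 26, Nrx-1, the neurexin gene, with a signal of 158, 99.1 and 62.1 in the pooled list and replicates 1 and 3. Cell cycle and replication had 1 of 35, Dp, the E2F partner gene, 382 bp after the TSS in its first intron. The lists of RNA genes held 27 of 3289 genes typed as ncRNA (0.821%) and 2 of 32 small nuclear RNA genes (6.25%). They also held 1 of 269 small nucleolar (0.372%) and 1 of 290 transfer RNA genes (0.345%). Upstream peaks were at 1.31%, 3.125%, 0.743% and 0.690% of these lists, in the same order.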

How the data were processed

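Both anti-GFP ChIP-seq libraries form 1 group. How the embryos of the replicates were kept separate is not stated, so their spread may be technical in part. The authors deposited narrowPeak-type lists on 2 builds, per the labels: 30000 relaxed peaks per replicate and for the pool, and the optimal set, thresholded by irreproducible discovery rate and equal to the strongest pooled peaks. Not given in the sources used here are the aligner, the peak caller and the thresholds. The deposited signal of a peak is the authors' score, on a scale that differs between lists. The deposited −log10 q-value of the authors' peak caller did not enter a test. The deposited summit offset was added to the peak start. Lists on dm3 were not used.

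The genome was Release 6 (dm6), with TSSs of Ensembl release 115 (FlyBase 6.54) and no transposable elements. Coordinates are 1-based. Two-sided Fisher's exact tests over peaks compared shares, with sample odds ratios and Woolf 95% intervals. P-values were adjusted by Benjamini-Hochberg within 26 motifs, 9 core elements or 7 features, at a threshold of 0.05. Single shares carry exact Clopper-Pearson intervals. All intervals cover counting error only, and depth is unknown. BEAF-32 sites (CGATA) overlap the DRE. Of the listed symbols 9 were matched through synonyms and 3 were not matched. Named genes were those of the 25 strongest members, up to 3 per list and those at the limits of the rule. The other ribosomal protein and RNA genes, the genes with printed sites or an AP-1 site, those with 2 members and the GC extremes were named after their values were seen. Members, lists and motifs were chosen with earlier results of these data known. The tests were tried on simulated data. Software was Python 3.11.15 with statsmodels 0.14.6, SciPy 1.17.1, NumPy 2.4.6, pandas 2.3.3 and matplotlib 3.10.9.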

Additional observations from a re-analysis of the deposited data

How the results depend on the processing

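No paired analysis was possible because the series has 1 group. The lower downstream share in the optimal set and the lower share of AT-rich windows kept their direction and side of the threshold under every alternative run, with odds ratios of 0.472 to 0.481 and 0.387 to 0.478 in a single replicate's own list. The first moved to 0.222 against the lower-ranked 15000 peaks, and the second to 0.717 (p 0.0115, Fisher's exact test) at a limit of 1000 bp and 0.268 among the next-ranked peaks. The share of members ranked at 1675 or better, which did not pass (0.762), passed with a single replicate (0.511 to 0.537), a limit of 250 bp (0.674), coding TSSs only (0.706), summits 50 to 250 bp away (0.478) and, chosen after seeing the data, without members before a later TSS (0.618). Instead of 0 motifs, 1 was called with a single replicate, 1 with a limit of 250 bp (the TATA box), 1 within GC bins (the AP-1 site) and, chosen after seeing the data, 4 among the next-ranked peaks: the CA repeat, the KLF/SP box, the homeodomain site and the Mef2 site. Instead of 1 feature, 2 to 3 were called with a single replicate, 2 with the strongest peak per gene and 2 without members before a later TSS. In replicate 1 alone the added feature was presence among the strongest peaks of both replicates. It held for 61.3% of downstream and 77.7% of upstream peaks (adjusted p 9.52e-07, Fisher's exact test). Without members before a later TSS it was the added feature too, at 66.7% and 76.7% (adjusted p 0.0200, same test). The causes were not tested, and a single replicate's list holds other peaks. The count of core elements was 0 under every alternative. A replicate summit within 100 bp in place of 200 bp gave 84.2% downstream in both, and there members 100 bp or more away could not lose their side. Calls on the side of the TSS within about 50 bp are limited by the difference between replicate summits, and depth was not analysed.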

Other observations

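The next-ranked 3350 pooled peaks held 395 downstream and 820 upstream single-promoter summits, and their composition differed more than that of the optimal peaks. Downstream windows had 43.5% ± 7.16 GC (SD) and upstream windows 38.9% ± 7.81 (SD), and 12.7% and 35.1% were AT-rich (odds ratio 0.268, 95% interval 0.193 to 0.372, p 1.65e-17 in a two-sided Fisher's exact test). The KLF/SP box was in 8.10% of these downstream windows and 3.78% of the upstream ones (odds ratio 2.24, adjusted p 0.0190), whereas in the optimal set it was in 5.12% and 4.66%. The difference between these contrasts was not tested. Homeodomain sites (TAATTA) were fewer downstream, at 6.33% against 13.8%, as were Mef2 sites (TAAAAATA), at 4.56% against 9.27%. This comparison was chosen after seeing the data, and its motif tests were not adjusted for the difference in GC content.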
